A study of Mus musculus with 10 samples.

Results

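Contacts of 200 to 500 kb were examined in mouse microglia, the resident macrophages of the brain. A contact is a pair of 5-kb bins on 1 chromosome that the authors called from H3K4me3 PLAC-seq. Members were chosen by 2 criteria: the authors annotated H3K4me3 in exactly 1 of the bins, and the starts of the bins lay 200 to 500 kb apart, both limits included. The rule kept 6029 of the 26689 contacts in the list (22.6%), or 25.8% of the 23395 contacts with H3K4me3 in 1 bin only. Distance, H3K4me3 and the read pairs of the list therefore describe the members and were not tested. The bin with H3K4me3 is called the marked bin below, and its partner the unmarked bin. Cells came from wild-type mice of the labelled strain C57/Bl6 and were sorted as CD45+ CD11b+ CX3CR1+ with a low CD45 gate. The mice were males aged 8 to 12 weeks. The series holds 10 samples, of which 2 PLAC-seq libraries and 2 H3K4me3 ChIP-seq libraries with their inputs gave the data used here. The Hi-C libraries of wild-type and Sall1 enhancer knockout mice were not analysed here.

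Trimethylation of lysine 4 of histone H3 (H3K4me3) is found at the promoters of active genes. Enhancers can lie far from the promoter they act on, and looping of the chromatin brings both into contact. The protein CTCF binds an asymmetric DNA motif and halts the cohesin ring that extrudes loops, so loop ends often carry CTCF motifs that point at each other. PLAC-seq joins DNA ends that lie close together in the nucleus and enriches those bound by an antibody, here against H3K4me3.

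The authors combined both PLAC-seq libraries in 1 list, so a contact has no replicate error and no test was run on contacts. How deeply the PLAC-seq libraries were sequenced is unknown. A pair of bins outside the list was not called rather than shown to lack contact. In sorted cells, a contact held by few cells and a weak contact held by many cells cannot be told apart. The H3K4me3 libraries held 12.8 and 13.4 M tags. Whether the replicates of an assay stem from different animals is not given, so differences between them may be technical. Both replicates had a peak no more than 1 kb from a transcription start site (TSS) for 24 of 25 matched genes typical of homeostatic microglia. The same held for 5 of 10 neuron genes, 4 of 8 astrocyte genes, 4 of 9 oligodendrocyte genes, 3 of 10 genes of endothelial and mural cells, 2 of 8 genes of border macrophages and 0 of 12 genes of monocytes, neutrophils and lymphocytes. The median peak of the marked neuron genes was 10.1 and 14.9 in replicates 1 and 2, against 231.8 and 214.9 for the homeostatic genes. It was 17.5 and 20.15 for astrocytes, 81.8 and 69.0 for oligodendrocytes, 48.3 and 67.1 for endothelial and mural cells, and 50.65 and 51.8 for border macrophages. Single markers of other cells had taller peaks, such as the astrocyte gene Slc1a3 (204.9 and 212.6) and the oligodendrocyte gene Mbp (162.8 and 210.3). Peak values throughout are tags normalized to a library of 10 M.

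DNA motifs were read first, because motif direction was not used to choose the contacts. The CTCF core motif stood in the left bin on the forward strand and in the right bin on the reverse strand in 36 contacts, so that both copies pointed into the loop. The 5 with the highest read pairs over expected, 1 per cluster of neighboring contacts and among the chromosomes whose sequence is printed here, are shown to make the direction visible. Each sequence was taken from GRCm38 (mm10), is written 5′ to 3′ on the strand that carries the motif, and has the motif match in capitals.
Pitpnc1 contact, left (unmarked bin, chr11:107213910-107213952, forward strand): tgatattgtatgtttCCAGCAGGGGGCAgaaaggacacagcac
Pitpnc1 contact, right (marked bin, chr11:107473331-107473373, reverse strand): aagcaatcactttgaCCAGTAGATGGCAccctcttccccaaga
Fam136a side contact, left (unmarked bin, chr6:86127096-86127138, forward strand): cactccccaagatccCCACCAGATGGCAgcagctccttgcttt
Fam136a side contact, right (marked bin, chr6:86364578-86364620, reverse strand): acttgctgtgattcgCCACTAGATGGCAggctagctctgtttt
Ccnd2 contact, left (marked bin, chr6:127147855-127147897, forward strand): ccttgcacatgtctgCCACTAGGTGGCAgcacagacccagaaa
Ccnd2 contact, right (unmarked bin, chr6:127359459-127359501, reverse strand): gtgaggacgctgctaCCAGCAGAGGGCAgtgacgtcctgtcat
Tiam1 side contact, left (marked bin, chr16:89774485-89774527, forward strand): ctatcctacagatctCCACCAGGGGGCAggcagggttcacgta
Tiam1 side contact, right (unmarked bin, chr16:90186392-90186434, reverse strand): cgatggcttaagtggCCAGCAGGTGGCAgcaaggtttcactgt
Klf3 contact, left (unmarked bin, chr5:64382611-64382653, forward strand): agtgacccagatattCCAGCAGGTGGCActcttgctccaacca
Klf3 contact, right (marked bin, chr5:64813652-64813694, reverse strand): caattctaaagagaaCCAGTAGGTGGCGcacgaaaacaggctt

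The Pitpnc1 contact spanned 260 kb and held 45 read pairs against 2.78 expected, a ratio of 16.2. Its marked bin covers an exon of Pitpnc1, which encodes a phosphatidylinositol transfer protein, and its unmarked bin covers an exon of the same gene. The contact beside Fam136a spanned 235 kb with 38 read pairs against 2.51, and neither of its bins held a deposited peak. The marked bin of the Ccnd2 contact lies 3.51 kb from the TSS of this D-type cyclin, and it reached 210 kb into intergenic sequence with 32 read pairs against 2.26. The contact of 415 kb whose marked bin lies 45.9 kb from the TSS of Tiam1 held 23 against 1.75. The Klf3 contact covered 430 kb with 17 against 1.47, so that each of the 5 rested on at least 17 read pairs.

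Over all members, the CTCF core motif was found in 7.22% of the 4655 unmarked bins and in 7.87% of the 2123 marked bins. Among all 478887 autosomal bins without unknown bases the share was 1.84%. Counting each bin once per side, 6.03% of 6828 bin ends held a motif that pointed into the contact (95% exact interval 5.48 to 6.63%) and 1.45% held one that pointed out of it (1.18 to 1.76%). The forward and reverse motif stood in 0.907% and 0.957% of all autosomal bins. The inward share was 6.17% at the marked ends and 5.97% at the unmarked ends, so both kinds of end showed it, and the outward share was 1.67% and 1.35%. In the classes up to 40 kb, from 45 to 195 kb and over 500 kb, unmarked bins held the motif in 3.86%, 7.08% and 8.41%. Marked bins of these classes held it in 4.08%, 7.53% and 9.54%. Their inward shares over all ends were 2.80%, 5.84% and 7.21%, and the outward shares 1.14%, 1.55% and 1.72%. Intervals treat bins as independent and cover counting error only.

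In pairs, motifs faced each other in 36 of 6029 contacts (0.597%, 0.419 to 0.826%) and faced away from each other in 3 (0.0498%, 0.0103 to 0.145%). Both motifs lay on the forward strand in 8 contacts and on the reverse strand in 6. Taken singly, the left bin held a forward motif in 7.81% of contacts and the right bin a reverse motif in 7.28%. The opposite strands were held by 1.73% of left and 1.48% of right bins. Whether facing pairs were more frequent than these single-end shares give was not tested. The 36 facing pairs came from 26 clusters. With bins extended by 5 kb on each side, 174 contacts had facing motifs and 16 had motifs facing away. Contacts with facing motifs had a median ratio of 7.43 (6.23 to 9.40, n = 36), against 5.24 (5.20 to 5.28, n = 4989) where neither bin held the motif. Among the 619 contacts with a ratio of at least 8 the motifs faced each other in 15 (2.42%) and faced away in 1. The facing share was 0.226% up to 40 kb, 0.492% from 45 to 195 kb and 0.951% over 500 kb. The interval at 200 to 500 kb overlaps those of both neighboring classes, while that of the shortest class ends at 0.416%.

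**Figure D1:**
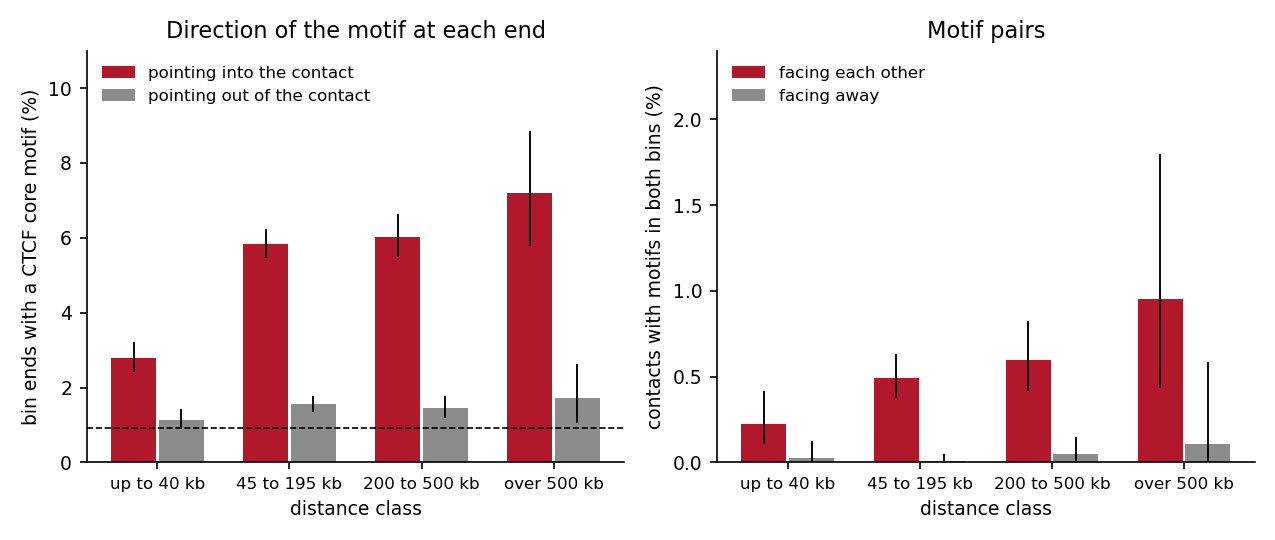
Left, percent of bin ends with a CTCF core motif that points into (red) or out of (gray) the contact, by distance class; the dashed line is the share of all autosomal bins with a forward motif (0.907%). Right, percent of contacts whose motifs face each other (red) or face away (gray). Black lines are 95% exact intervals. At 200 to 500 kb the inward share was 6.03% and the outward share 1.45%.

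A further 5 motifs were searched on both strands, and the letters of each are given once. The PU.1 motif GAGGAAGTG, recognized by the lineage-determining factor of macrophages, was present in 12.5% of unmarked bins and 14.6% of marked bins, against 9.98% of all bins. The AP-1 motif TGAGTCA was in 59.8% and 55.8%, against 54.6%. The MEF2 motif CTATTTATA was in 6.83% and 5.13%, below the 7.93% of all bins, and the SMAD palindrome GTCTAGAC in 4.49% and 3.82%, against 3.88%. The C/EBP palindrome TTGCGCAAT was rare, in 0.150% and 0.518%, against 0.170%. The median GC content was 44.4% in unmarked and 47.3% in marked bins, and its part in these shares was not tested.

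Examples of the PU.1 motif are shown for distal bins of 3 genes, each from the bin of the highest ratio that holds a match, with the match in capitals.
Ccnd1 distal bin (chr7:145249047-145249085, reverse strand, intron of Tpcn2): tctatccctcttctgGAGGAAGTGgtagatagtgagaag
Olfml3 distal bin (chr3:103397681-103397719, forward strand, intergenic): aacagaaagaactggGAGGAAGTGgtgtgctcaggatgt
Runx1 distal bin (chr16:93145219-93145257, forward strand, intergenic): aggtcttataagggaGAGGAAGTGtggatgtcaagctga
The motif was present in 2 of the 13 distal bins of Ccnd1, 3 of 12 for Olfml3 and 1 of 9 for Runx1.

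Contacts thinned out steadily within the range. The median distance was 280 kb, with quartiles at 235 and 350 kb, and 57.2% of members spanned less than 300 kb. From 200 to 245 kb there were 2044 contacts, and from 450 to 500 kb 365. The median number of read pairs per contact was 12, the lowest 7 and the highest 78, while the median expected number was 2.15. Median read pairs fell from 13 to 10 between the first and the last of these bands and the expected number from 2.54 to 1.69, so that the median ratio went from 4.92 to 5.85.

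Read pairs over expected, the ratio by which the strength of a contact is described here, had a median of 5.30 (5.26 to 5.34) and ranged from 2.88 to 23.5. It was 2.45 up to 40 kb, 3.94 from 45 to 195 kb and 6.12 over 500 kb. The lowest called ratio in these classes was 2.00, 2.02 and 3.93: with few expected pairs only high ratios were called, so ratios of different distances are not a scale of strength. At the limits of the rule, the 255 contacts of 195 kb had a median ratio of 4.84 and the 241 of 200 kb 4.66, and the 26 contacts of 500 kb had 5.49 and the 31 of 505 kb 6.44. Members held 14.1% of all read pairs in the list. Contacts at the same distances with H3K4me3 in both bins numbered 753, with a median ratio of 4.49 and a median of 2.85 pairs expected.

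**Figure D2:**
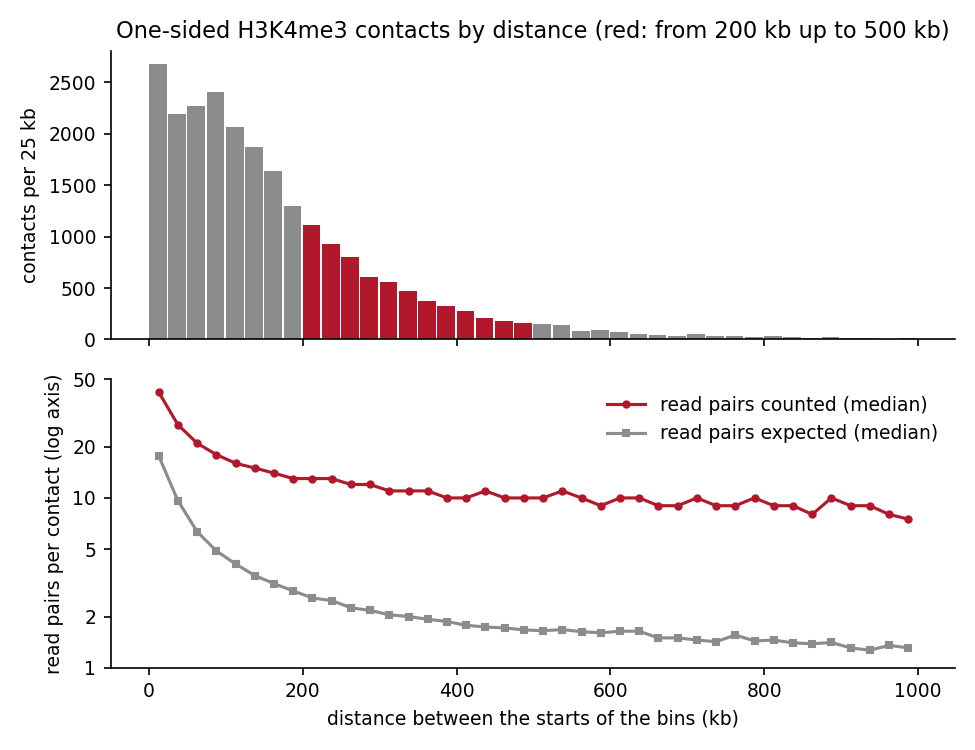
Top, number of contacts with H3K4me3 in 1 bin per 25 kb of distance, with bins that start at 200 to 475 kb in red; contacts of exactly 500 kb fall in the next bin. Bottom, median read pairs counted (red) and expected (gray) per contact on a log axis. Counts fell from 1 bin to the next through the red range, and the expected number fell faster with distance than the counted number.

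Contacts with many read pairs were few: 478 members (7.93%) held at least 20. Among these the 12 highest ratios, from 16.2 to 23.5, came from 9 marked bins. Ccnd1, the gene of cyclin D1, which drives entry into the cell cycle, had the highest. Its promoter bin (chr7:144935001-144940000) contacted an intron of Tpcn2 (chr7:145240001-145245000) 305 kb upstream with 59 read pairs against 2.51 expected. No other marked gene starts between them. Tmem242 contacted an intron of Zdhhc14 at 305 kb with 48 against 2.40, past 1 marked gene. The promoter bin of Cebpb, a C/EBP transcription factor of myeloid cells, contacted 2 adjoining intergenic bins at 205 and 210 kb with 43 and 51 read pairs against 2.38 and 2.90. Snx18, which encodes a sorting nexin, had the most read pairs of any member, 78 against 4.69 at 295 kb (16.6), with the partner in an exon of BC067074.

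Besides Pitpnc1, shown above with its sequences, the other bins among the 12 held no coding TSS. The TSS of the noncoding gene D330050G23Rik lies in a bin that contacted 2 bins with exons of Spred1, at 275 and 280 kb, with 39 and 32 read pairs against 1.88 and 1.90. A bin 6.24 kb from the TSS of Slc22a18, which the authors annotated with Cdkn1c, contacted 2 bins in an intron of Kcnq1 at 310 and 315 kb with 31 and 29 read pairs; its deposited peak was 8.95 in replicate 2 and absent from replicate 1. An intergenic bin 34.3 kb from the TSS of Ifrd1 contacted an intron of Dock4 at 425 kb (35 against 2.09). A second intergenic bin, 22.4 kb from the TSS of Tarbp1, contacted another at 430 kb (34 against 1.73).

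Members concentrated on some marked bins. Of the 2123 marked bins, 854 (40.2%) had 1 member, and 75 had at least 10 and together held 971 members (16.1%). The bins of Maf and of Plcl1 led with 22 members each. Maf encodes a large Maf transcription factor of macrophages: its contacts lay 200 to 500 kb downstream, each with 10 to 47 read pairs (median 17.5), and together held 461 pairs against 88.4 expected. Plcl1 encodes a phospholipase C-like protein, and 15 of its 22 contacts lay in its own gene body. A bin on chromosome 13 without a coding TSS, 30.4 kb from that of Dtnbp1, followed with 21 members; its H3K4me3 peaks were low, 7.79 and 13.4.

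Klf3, which encodes a Krüppel-like repressor, had 21 members from the bin chr5:64810001-64815000 and 26 from all bins with its TSSs. All 26 lay upstream, at 200 to 495 kb, with 8 to 18 read pairs each and 306 pairs against 45.6 in all. A bin with the TSS of the noncoding gene Gm11638 had 20. Snx18 and Irf2bp2, the latter a corepressor partner of IRF2, had 18 each, and Fam43a had 16 at 355 to 480 kb. The intergenic bin near Ifrd1 and the bin of D330050G23Rik had 16 as well. The H3K4me3 peaks of the bins of Maf, Plcl1, Snx18, Irf2bp2 and Fam43a ranged from 126.2 to 310.1 in replicate 1 and 136.5 to 386.4 in replicate 2. The leading bin of Klf3 had 13.2 and 10.4, while the highest peak at any TSS of Klf3 was 342.0 and 356.5.

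**Figure D3:**
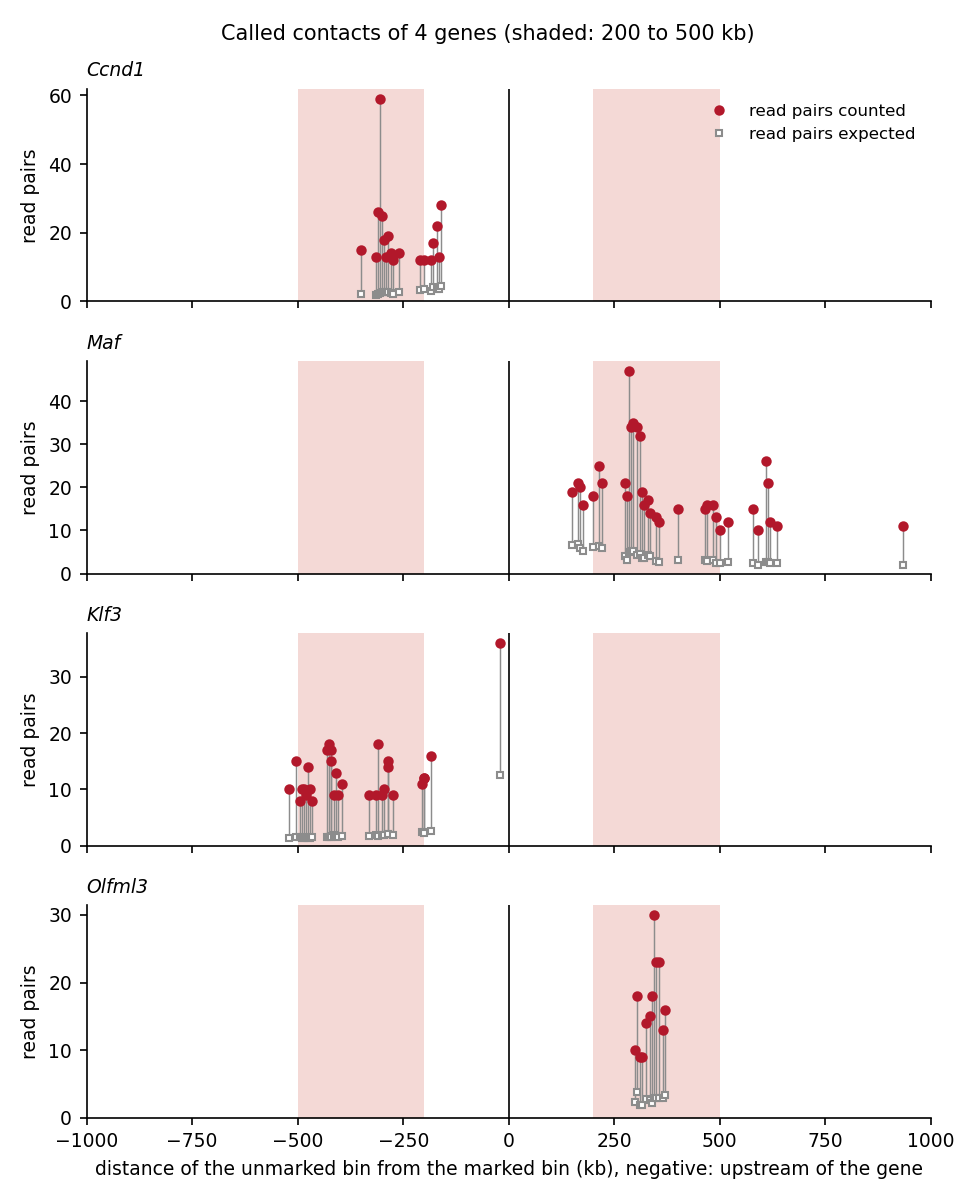
Called contacts of Ccnd1, Maf, Klf3 and Olfml3 with H3K4me3 in 1 bin, by distance of the unmarked bin from the marked bin in kb, negative upstream of the gene. Red points are read pairs counted and open squares read pairs expected; 200 to 500 kb is shaded. Contacts lay on 1 side of each gene, upstream for Ccnd1 and Klf3 and downstream for Maf and Olfml3, and all 12 contacts of Olfml3 fell between 300 and 370 kb.

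Distal bins also recurred and formed runs. Of the 4655 unmarked bins, 1032 were contacted by at least 2 marked bins and 236 by at least 3. Neighboring marked bins of the same locus count here as separate partners, so these are not counts of separate promoters. A bin with an exon of Ptpa (chr2:30430001-30435000) was contacted by 7 marked bins at 340 to 395 kb, among them those of Ntmt1 and 1700001O22Rik, with 124 read pairs against 14.2. All 7 lay within chr2:30770001-30830000. Its neighbor and an intergenic bin 6.72 kb from the TSS of Ier5l were each contacted by 6 marked bins that included the same genes. An intergenic bin on chromosome 10 (99575001 to 99580000), 182 kb from the nearest coding TSS, was contacted by 7 marked bins, with TSSs of Dusp6, Galnt4 and Poc1b, at 275 to 470 kb; Dusp6 encodes a phosphatase of MAP kinases. These 7 lay within chr10:99105001-99305000. The bin beside that intergenic bin had 6 marked partners. An intergenic bin 34.8 kb from the TSS of Ptpn1 was contacted by 6 marked bins that included Cebpb, Ube2v1 and Tmem189 at 205 to 265 kb, with 122 read pairs against 14.8. These 6 lay within chr2:167630001-167695000.

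Members formed 4069 runs of adjoining unmarked bins seen from 1 marked bin. Single bins made up 72.5% of runs, and 27.9% of members lay in 422 runs of at least 3 bins. The longest run covered 12 bins (60 kb) that lay 225 to 280 kb from the promoter of Pitpnc1, with 274 read pairs against 32.3. It reached from within Pitpnc1 past the end of that gene. Runs of 10 bins were found from Tmem242 into Zdhhc14 (264 against 22.4), from Psma1, a proteasome subunit, into Pde3b (204 against 32.0), from Plcl1 along its own gene (131 against 22.4), and from a bin 3.82 kb from the TSS of Slc12a2 over Ccdc192 (131 against 18.1). That last marked bin held no deposited peak in either replicate.

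A coding TSS lay in 52.0% of the marked bins, and for a further 17.9% in a bin beside them. Among the unmarked bins 2.30% held a coding TSS, against 4.96% of all autosomal bins. The rule required these bins to lack annotated H3K4me3, which leaves out marked promoters, so a low share is built in. For a further 14.9% of the unmarked bins a coding TSS lay in a bin beside them, against 8.02% of all autosomal bins. Exons of coding genes were touched by 31.4% of unmarked bins, introns alone by 24.6%, and 44.0% were intergenic, against 21.6%, 22.9% and 55.5% of all bins. Intergenic bins made up 35.7% of unmarked bins up to 40 kb, 34.9% from 45 to 195 kb and 56.4% over 500 kb. Deposited H3K4me3 peaks were found in both replicates in 82.1% of the marked bins and in neither in 201 of them, and in either replicate in 3.22% of the unmarked bins, so the authors' annotation and the deposited peaks differ for some bins.

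The tallest peak of the marked bins had a median of 71.7 in replicate 1 and 71.6 in replicate 2. Marked bins of contacts up to 40 kb had 53.0 and 53.7, those from 45 to 195 kb 77.9 and 81.3, and those over 500 kb 83.8 and 86.2. The values of 200 to 500 kb lay above the shortest class and below both others in each replicate, with bins without a deposited peak taken as 0. Over bins with a peak, the medians were 127.0 and 136.5 both at 200 to 500 kb and over 500 kb. Many bins belong to several classes.

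Distal bins were usually nearer to another gene with an H3K4me3 peak near its TSS than to the gene at the marked bin. The 3016 members whose marked bin holds the TSS of a marked gene were examined, a marked gene being a protein-coding gene with a peak at most 1 kb from a TSS in each replicate. In 2546 of them (84.4%, 83.1 to 85.7%) the unmarked bin lay nearer to the TSS of another marked gene. The nearer gene may lie between the bins or beyond them. This share depends on distance by construction, and was 36.5% up to 40 kb, 76.8% from 45 to 195 kb and 90.7% over 500 kb. Of all members, 26.2% had no other marked gene between the bins, the median was 1 and the highest number 23. The distal bin lay upstream in 1327 and downstream in 1475 of 2802 contacts from genes of 1 strand (47.4% upstream, 45.5 to 49.2%). In 244 of the 3016 contacts (8.09%) it lay in the body of the gene itself.

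At the level of genes, 1145 of 12291 marked autosomal genes, or 9.32%, had at least 1 member, with a median of 2 and a highest number of 26. Genes that share a bin share its contacts, and contacts of a gene at any or other distances below are those with H3K4me3 in 1 bin. For 623 of the 1145 (54.4%) every contact with H3K4me3 in 1 bin lay in this range, and 1234 of the 2123 marked bins (58.1%) had no shorter one. Genes with a member had a median of 8 other marked genes within 500 kb, genes without had 10, and their promoter peaks had medians of 231.4 and 244.7 against 214.2 and 220.0. Split by number of such neighbors into 4 sets of nearly equal size, 11.5% of the set with the fewest (0 to 5) and 5.60% of the set with the most (18 to 52) had a member.

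**Figure D4:**
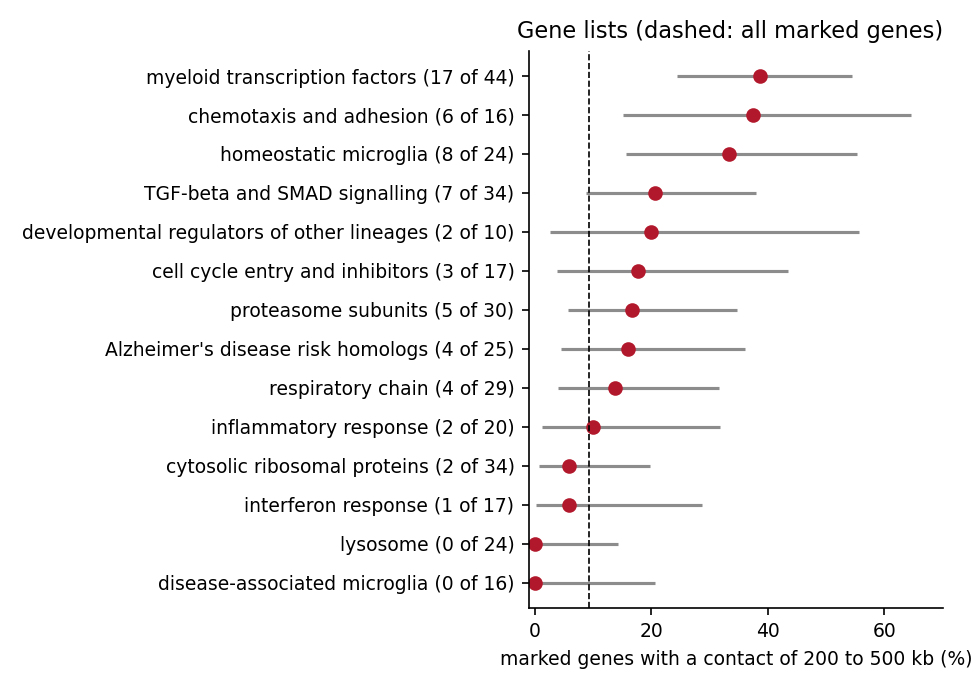
Percent of the marked genes of each list with at least 1 contact of 200 to 500 kb (points) and the 95% exact interval (lines), for lists with at least 10 marked genes; the dashed line is the share of all marked genes (9.32%). Myeloid transcription factors, chemotaxis and adhesion, and homeostatic microglia lie between 33.3 and 38.6%, and lysosome and disease-associated microglia at 0.

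Of the transcription factors of the myeloid lineage, 17 of 44 marked genes had a member (38.6%, 24.4 to 54.5%), against 9.32%. Genes of a list are not replicates and its interval is a description. At any distance 33 of the 44 had a contact, against 32.6% of all marked genes. With at least 20 read pairs 6 of the 44 genes were left, where the share of all marked genes was 1.24%. Maf had 22, Sall1 12, Runx1, a regulator of hematopoietic identity, 11, and Id2, an inhibitor of E proteins, 9. Runx1 contacts lay 205 to 495 kb upstream, with 9 to 19 read pairs. These genes have few neighbors, a median of 4.5 marked genes within 500 kb, and 24 of the 44 fall in the set with the fewest. Of those 24, 15 had a member, against the 11.5% of that set. Fli1, Jund and Etv5 had the highest peaks of the list's genes without a member (370.1 and 402.0 for Fli1), and Fli1 had 15 contacts at other distances. The list was written with earlier results of these data known, which holds for all lists here.

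Homeostatic microglia genes had members in 8 of 24 cases (33.3%, 15.6 to 55.3%), against 9.32%. At any distance 18 of the 24 had a contact, against 32.6% of all marked genes. With at least 20 read pairs 4 of the 24 genes were left, where the share of all marked genes was 1.24%. Sall1 and Olfml3, which encodes a secreted olfactomedin-like protein, had 12 each. The members of Olfml3 held 9 to 30 read pairs against 1.87 to 3.80 expected, all 300 to 370 kb downstream, and the gene had no contact with H3K4me3 in 1 bin at other distances. Jun, an AP-1 subunit, had 6 at 240 to 500 kb and Fcrls, an Fc receptor-like gene, had 3 at 245 to 255 kb. Bin1, Cst3 and Mertk had none, with peaks between 328.0 and 368.5. At other distances Bin1 had 11 contacts, Mertk 7 and Cst3 0. Sall1 is in the list of myeloid factors as well.

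Among genes of TGF-beta and SMAD signaling 7 of 34 (20.6%, 8.70 to 37.9%) had a member, an interval that includes the 9.32% of all marked genes. Limits of 250 to 450 kb, and likewise a minimum of 20 read pairs, left 3. The share of all marked genes under these 2 settings was 5.87% and 1.24%. Ldlrad4, an inhibitor of the pathway, had 13, of which 12 lay in its own gene body. Tgfb3, a ligand, had 6, Pmepa1, a feedback inhibitor, 4, Tgfbr2, a receptor, 2, and the inhibitory Smad7 had 1. Skil, which encodes a SMAD corepressor, had the highest peak of those without a member (522.0 and 473.7) and no contact with H3K4me3 in 1 bin at any distance. Itgav and Bmpr2 had no member. In chemotaxis and adhesion 6 of 16 (37.5%, 15.2 to 64.6%) had one, against 9.32%. The count was 3 with the false discovery rate held to 0.0001, 3 with 1 contact per cluster and 0 with at least 20 read pairs. The share of all marked genes under these settings was 5.26%, 5.33% and 1.24%. At any distance 11 of the 16 had a contact (68.8%, against 32.6%). The list was led by the integrin genes Itga9 (7, of which 6 in its own body), Itgb5 (3) and Itga6 (3) and the neuropilins Nrp1 and Nrp2 (2 each). Plxnb2, Itgb1 and Sema4d had none.

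Genes of disease-associated microglia and of the lysosome had no member, 0 of 16 (upper exact bound 20.6%) and 0 of 24 (14.2%), against 9.32%. Contacts with H3K4me3 in 1 bin at any distance were found for 9 of 16 and 15 of 24, against 32.6% of all marked genes. The median peak was 206.9 and 248.0 in replicates 1 and 2 for the first list and 272.7 and 273.8 for the second, against 215.8 and 222.3 over all marked genes. Ctsb, a lysosomal protease in both lists, had 351.4 and 390.9, and Fth1, Cd63, Lamp1 and Asah1 had no member either. The median number of marked neighbors was 11 and 9.5. Both upper bounds lie above 9.32%, so a share below the background was not detectable with this number of genes.

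Cell cycle genes had members in 3 of 17 cases (17.6%, 3.80 to 43.4%). This interval and those of the next 3 lists include the 9.32% of all marked genes. Ccnd1 had 13, Cdkn1c, a kinase inhibitor, 4 and Myc 2. Rb1, E2f3 and Cdkn2c had none. Ccnd1 members held 12 to 59 read pairs against 1.84 to 3.52 expected and lay 200 to 350 kb upstream. Homologs of Alzheimer's disease risk genes had members in 4 of 25 (16.0%, 4.54 to 36.1%): Ms4a6d had 5, App, the amyloid precursor, and Adam10, its alpha-secretase, had 3 each, and Mef2c had 1 at 450 kb with 14 read pairs against 1.64. Bin1 and Cd2ap had none. Of inflammatory genes 2 of 20 (10.0%, 1.23 to 31.7%) had members, the cytokine Il6 (4) and the NF-kappaB regulator Nfkbiz (2), while Tnfaip3, with peaks of 408.2 and 424.4 and 25 contacts at other distances, had none, and neither had Nfkbia and Rela. Zbp1, a sensor of Z-form nucleic acids, had 7 and was the only 1 of 17 interferon response genes (5.88%, 0.149 to 28.7%) with a member. Ifnar2 and Stat2 had none.

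The shares of housekeeping genes could not be told from the background. Proteasome subunits had members in 5 of 30 (16.7%), led by Psma1 (10) and Psmd12 (9), then Psmb10 (4), Psmb7 and Psmb6 (1 each). Respiratory chain genes had them in 4 of 29 (13.8%), Ndufv2 with 2 and Cox5a, Ndufb8 and Ndufv1 with 1 each, and cytosolic ribosomal proteins in 2 of 34 (5.88%), Rpl13 with 5 and Rps12 with 3. All their intervals include 9.32%. Psmd12 and Pitpnc1 start in neighboring bins and contacted the same stretch, Psmd12 with 124 read pairs against 18.1. Highly marked genes without a member were Psmd11, Psma7, Psmb4, Cox4i1, Atp5c1, Cox6a1, Rpl14, Rpl22 and Rpl19.

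Regulators of other lineages had members in 2 of 10 genes, with an interval of 2.52 to 55.6% that includes 9.32%, Neurog2 and Lhx2 with 1 each, with low promoter peaks (31.9 in replicate 1 for both, and 41.8 and 38.8 in replicate 2). Pax6, Gata6 and Gata4 had none. Of the marker genes of other brain cells only the oligodendrocyte gene Cldn11 had members, 2, with peaks of 11.7 and 8.21. No member came from marked genes of neurons (0 of 5), astrocytes (0 of 4), endothelial and mural cells (0 of 3) or border macrophages (0 of 2), among them Eno2, Tubb3, Slc17a7, Slc1a3, Aldh1l1, Gja1, Kdr, Flt1, Pecam1, Stab1 and Mrc1, nor from Mbp, Cnp and Olig2. With so few genes these counts cannot be told from 9.32%.

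At the loci that the study names, Sall1, which encodes the zinc finger factor of microglia identity, had 12 members, all upstream at 220 to 500 kb, with 10 to 21 read pairs against 2.28 to 5.25 expected. The highest ratio, 7.71 (21 against 2.72), was at chr8:89400001-89405000, which is intergenic and 358 kb from the TSS of Sall1. Sall1 had 6 more contacts at other distances. The 2 members of Tgfbr2 lay 200 and 205 kb upstream with 12 read pairs each. P2ry12, Tmem119, Selplg, Ski and Apoe had none, and of these P2ry12 had 3, Tmem119 1, Ski 4, Apoe 2 and Selplg 0 contacts with H3K4me3 in 1 bin at other distances.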

How the data were processed

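PLAC-seq and H3K4me3 ChIP-seq of wild-type microglia were analysed from the deposited lists. The authors called contacts with MAPS (v1.1.0) between bins of 5 kb, from both libraries combined, guided by H3K4me3 peaks called with v2.0.0 of the ENCODE pipeline for ChIP-seq. For each contact the authors deposited a count of read pairs, and the expected signal comes from the regression of MAPS. The authors' false discovery rate (a q-value) was at most 0.01, the lowest ratio of counted to expected 2 and the lowest count 7. H3K4me3 peaks were deposited per library with their tag counts and with a signal normalized by the authors to 10 M tags; Bowtie2, HOMER and mm10 are in the submitters' processing notes, without versions. The deposited peaks may not be those that guided MAPS.

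Genes and TSSs came from GENCODE M21 (20696 autosomal protein-coding genes), and motifs were matched exactly on both strands of GRCm38. Scripts ran in Python 3.11.15 with pandas 2.3.3 and SciPy 1.17.1 and returned the planted answers when tested on simulated data. No test was run, since contacts have no replicate error; shares carry exact 95% binomial intervals and medians exact order-statistic intervals. Members and the 20 gene lists were chosen with earlier results of these data known. Named were the 12 members with the highest ratio among those with at least 20 read pairs, the 12 marked bins with the most members, the 6 unmarked bins with the most marked partners, the 5 longest runs, up to 5 genes per list with the most members, up to 3 per list with the highest H3K4me3 and no member, and the loci that the study names. Sequences were read from GRCm38, leaving out chromosomes 8 and 18. Some genes that the rule names are not reported here. Genes that share these bins and the genes nearest to them were named for position.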

Additional observations from a re-analysis of the deposited data

How the results depend on the processing

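Limits of 250 to 450 kb left 3662 contacts, a median ratio of 5.44 and members at 5.87% of marked genes. Limits of 150 to 600 kb gave 9420, 5.11 and 13.9%. A false discovery rate of at most 0.0001 kept 2325 contacts with a median ratio of 6.84, reached 5.26% of marked genes, and gave a median H3K4me3 value of 80.0, 82.4% with the unmarked bin nearer to another marked gene and 1.12% with facing CTCF motifs. With at least 20 read pairs these values were 478, 8.88, 1.24%, 104.3, 77.7% and 2.30%. With 1 contact per cluster they were 1303, 6.20, 5.33%, 87.9 and 85.7%, and the facing share moved by less than its interval. A TSS in the marked bin or beside it gave 10.4% of genes, the sum of the peaks of a bin a median of 84.9, the TSSs of all coding genes 88.9% nearer to another gene, and bins extended by 5 kb 2.89% with facing motifs. Leaving out either H3K4me3 replicate gave 5250 to 5323 contacts, 9.12 to 9.21% of genes and a median H3K4me3 value of 71.6 to 71.7, against 74.0 for the mean of both. Marking by deposited peaks of both replicates gave 5135 contacts and a median ratio of 5.27, against 6029 and 5.30 by the authors' annotation. Of 160 recomputed counts of list genes, 33 moved by over 1.5 times, 28 of them down and 5 up: myeloid transcription factors had between 6 (at least 20 read pairs) and 18 genes with a contact, homeostatic genes 4 to 12, chemotaxis and adhesion 0 to 6, disease-associated microglia 1 at 150 to 600 kb and 0 otherwise, and the lysosome 0 throughout. No paired analysis was possible because no result came from a test. The unknown depth of PLAC-seq limits how many contacts were called.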

Other observations

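Some unmarked bins held the start of a coding gene. This was the case for 130 of the 6029 contacts (2.16%), which touched 107 bins with the TSSs of 106 genes, of which 64 were not marked genes. The following contacts each held at least 20 read pairs. Spocd1 was reached over 225 kb from a bin without a coding TSS with 34 read pairs against 2.25 expected. The promoter of Vegfa, a growth factor for vessels, was in contact with the start of 1600014C23Rik at 300 kb (35 against 2.78), and that of Cd24a, a cell surface glycoprotein, with Rtn4ip1 at 345 kb (24 against 2.01). Vps35l was reached from Gprc5b at 235 kb (23 against 2.15), and Ifi47 and Olfr56, in 1 bin, from the interferon-induced Irgm1 at 215 kb (21 against 2.93). These are the 4 with the highest ratios and 1 of lower rank, and the genes were chosen after their values were seen.

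The share of members among the contacts with H3K4me3 in 1 bin differed between chromosomes, from 16.8% of 1522 on chromosome 4 to 32.8% of 1446 on chromosome 10. Per Mb of sequence, members ranged from 1.37 on chromosome 14 to 3.75 on chromosome 8.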
